A study of Mus musculus with 3 samples.

Results

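Cell cycle and proliferation genes were followed in single cells of the mouse aortic adventitia, the outer connective tissue layer of the vessel wall. The set held 38 genes listed by symbol out of the 32285 genes in the files, and all 38 were found. Of these, 24 act in mitosis, 12 act in DNA replication or nucleotide supply, and Hmgb2 and Stmn1 make up the rest. A cell was called cycling when at least 3 of 6 of the genes, Mki67, Top2a, Birc5, Cdk1, Ccna2 and Ube2c, were detected in it. By this rule 221 of 37564 cells (0.588%) were cycling, and they held 1.51% of all UMIs (unique molecular identifiers, each counting 1 captured RNA molecule).

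The mice received vehicle (Vehicle), angiotensin II, a peptide hormone that raises blood pressure (AngII), or angiotensin II together with voluntary wheel running (AngII_VWR). According to the labels each group consisted of 3 mice, with no strain, age, sex, dose, duration or pooling scheme stated. Each group was deposited as 1 droplet-based 3′ library, so no comparison below has a replicate, and both comparisons use the same AngII library. The 95% intervals given are exact and cover counting error only, not differences between mice or preparations. Intervals for gene levels treat each UMI as independent, so they also leave out differences between the cells of a library. They are therefore too narrow where few cells hold most UMIs of a gene.

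A dividing cell first licenses its replication origins with the MCM2-7 helicase, copies its DNA with the sliding clamp PCNA and a supply of deoxynucleotides, and then enters mitosis under cyclin A, cyclin B and CDK1. Kinesins, spindle proteins and the kinetochore checkpoint arrange the chromosomes, and the anaphase-promoting complex, with CDC20 and the ubiquitin carrier UBE2C, ends mitosis by marking cyclins for degradation. Many of these mRNAs are made only at their own stage of the cycle, while some of the replication genes are also transcribed at a low level in resting cells. In arteries, resident macrophages of the adventitia are known to maintain themselves by local division.

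The promoters of the set are shown because 2 kinds of short DNA word, known from the literature on cell cycle transcription, occur at different rates in the mitotic and the replication genes. The first is the cell cycle homology region (CHR), TTTGAA or TTCGAA, bound by the DREAM and MuvB complexes, which usually lies downstream of CCAAT boxes bound by NF-Y. The second is the E2F site, searched here as TTTGGCGC, TTTCCCGC, TTTGGCGG or TTTCCCGG. Each word was searched on both strands, and different words were allowed to overlap. RefSeq promoters (build GRCm38.p6, 250 bases before to 50 bases after the start) matched 32 of the 38 genes by symbol and gave 34 promoters. The 250 bases before the start are printed 5′ to 3′ along the gene's strand for 3 mitotic genes that define cycling cells (Cdk1, Top2a, Ube2c) and for 2 helicase genes (Mcm5, Mcm6), with every matched word in capitals.
Cdk1, chr10:69352913-69353162, minus strand: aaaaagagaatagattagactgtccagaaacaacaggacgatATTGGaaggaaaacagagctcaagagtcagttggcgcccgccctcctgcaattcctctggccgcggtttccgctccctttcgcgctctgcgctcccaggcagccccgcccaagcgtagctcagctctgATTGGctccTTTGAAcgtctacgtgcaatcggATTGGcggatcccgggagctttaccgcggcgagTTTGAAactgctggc
Top2a, chr11:99024190-99024439, minus strand: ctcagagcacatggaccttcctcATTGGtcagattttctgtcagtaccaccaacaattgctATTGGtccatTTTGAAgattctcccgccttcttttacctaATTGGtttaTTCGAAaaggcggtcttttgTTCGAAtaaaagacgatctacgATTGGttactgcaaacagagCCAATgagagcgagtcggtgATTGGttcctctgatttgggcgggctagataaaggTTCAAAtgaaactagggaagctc
Ube2c, chr2:164769679-164769928, plus strand: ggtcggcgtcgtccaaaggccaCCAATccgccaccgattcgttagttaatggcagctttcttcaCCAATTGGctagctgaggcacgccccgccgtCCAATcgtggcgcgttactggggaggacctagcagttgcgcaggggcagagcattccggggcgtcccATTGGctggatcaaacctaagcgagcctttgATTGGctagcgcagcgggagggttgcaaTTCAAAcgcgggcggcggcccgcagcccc
Mcm5, chr8:75109259-75109508, plus strand: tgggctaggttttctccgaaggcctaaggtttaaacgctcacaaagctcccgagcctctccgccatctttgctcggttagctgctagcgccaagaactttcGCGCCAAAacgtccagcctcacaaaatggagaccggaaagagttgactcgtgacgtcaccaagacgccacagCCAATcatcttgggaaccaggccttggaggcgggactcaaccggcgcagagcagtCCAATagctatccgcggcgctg
Mcm6, chr1:128359706-128359955, minus strand: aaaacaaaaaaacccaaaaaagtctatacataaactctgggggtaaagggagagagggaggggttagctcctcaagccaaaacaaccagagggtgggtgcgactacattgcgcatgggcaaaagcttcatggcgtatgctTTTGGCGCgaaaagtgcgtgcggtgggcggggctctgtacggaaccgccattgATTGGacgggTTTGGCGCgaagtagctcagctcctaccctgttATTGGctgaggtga
The promoters of the 3 mitotic genes hold CHR words and CCAAT boxes, and those of the 2 helicase genes hold E2F words and CCAAT boxes without a CHR word in this window.

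A CHR word stood in 16 of 21 promoters of the mitotic genes (76.2%), in 2 of 12 promoters of the replication genes (16.7%), and in 19.2% of all 32851 RefSeq promoters of the same length. A CCAAT box stood in 85.7% of mitotic, 83.3% of replication and 37.4% of all promoters. At least 1 of the 4 E2F words stood in 5 of 12 replication promoters (41.7%), in 1 of 21 mitotic promoters (4.76%) and in 3.32% of all promoters. In 6 mitotic genes (Aurka, Bub1, Cenpa, Cenpf, Kif23 and Plk1) every CHR word lay after the start, between positions 3 and 33. A match is a description of the letters and not evidence of binding.

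After filtering, 12324, 9115 and 16125 cells remained in Vehicle, AngII and AngII_VWR, with a median of 9430.5, 13154 and 4472 UMIs per cell. Shares of cycling cells were therefore also taken after thinning each cell to 4000 UMIs, which kept the cells with at least that depth (70.4, 82.9 and 55.0% of cells). Pairs of libraries shared 30 to 51 cell barcodes. Fibroblasts were cells with at least 1% of UMIs from Col1a1, Col1a2, Dcn and Lum, and macrophages those with at least 0.3% from C1qa, C1qb and C1qc. Removing doublets, droplets scored as holding 2 cells, took out 42, 21 and 16 cycling cells, and the main results in macrophages are given with and without this step.

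Cycling cells were few in every library and most were macrophages after angiotensin II. Vehicle held 40 cycling cells (0.325% of cells, 0.232 to 0.442%), AngII held 92 (1.01%, 0.814 to 1.24%) and AngII_VWR held 89 (0.552%, 0.443 to 0.679%). With doublets kept the counts were 82, 113 and 105 (0.592, 1.14 and 0.552%). Macrophages made up 32.5% of the cycling cells in Vehicle (18.6 to 49.1%), 63.0% in AngII (52.3 to 72.9%) and 67.4% in AngII_VWR (56.7 to 77.0%), against 20.6, 21.9 and 20.0% of all cells. With doublets kept they were 37 of the 82 in Vehicle (45.1%, 34.1 to 56.5%), 70 of 113 in AngII (61.9%) and 64 of 105 in AngII_VWR (61.0%). Fibroblasts were 53.1, 66.7 and 67.7% of all cells and only 17.5, 2.17 and 5.62% of the cycling ones.

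**Figure D1:**
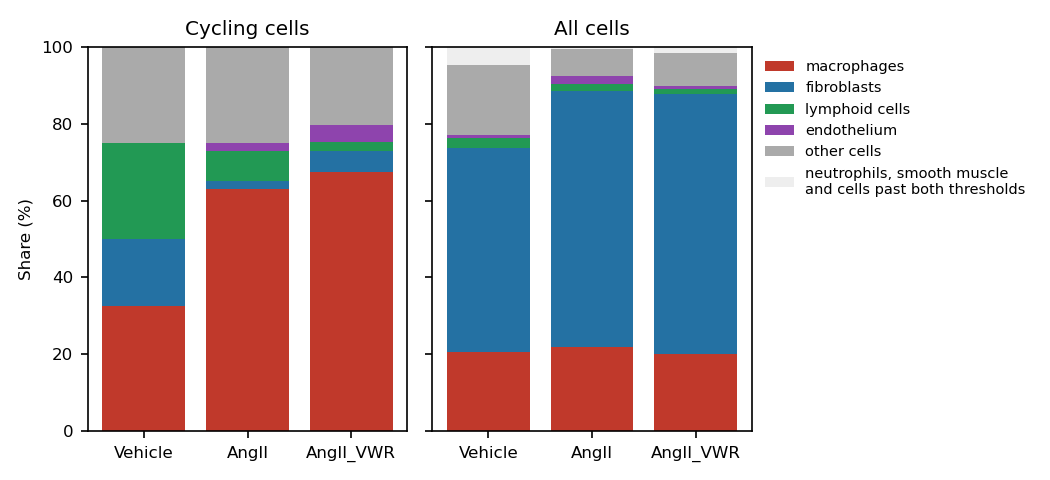
Share of each cell class (vertical axis, %) among cycling cells (left) and among all cells (right) in the 3 libraries, doublets removed. Macrophages are near 20% of all cells in each library and are 32.5, 63.0 and 67.4% of the cycling cells.

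Cycling cells also held many members outside the rule. A median of 29, 33 and 24 of the 38 genes was detected per cycling cell in the 3 libraries, and the cells with the fewest held 10, 8 and 3. Of all UMIs of Bub1, a spindle checkpoint kinase, 92.0% lay in cycling cells. The share was 89.2% for Cenpf, a kinetochore protein, 88.8% for Ccna2 (cyclin A2), 88.4% for Pclaf, a PCNA-binding factor, and 85.6% for Top2a, the topoisomerase that untangles replicated DNA. Ccna2 and Top2a belong to the rule, so their shares are a description of it, and Bub1, Cenpf and Pclaf do not.

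Of the 12 replication genes, 9 were mostly counted outside cycling cells, and Pclaf, Tk1 (61.5%) and Rrm2 (53.0%) were not. Only 6.39% of the UMIs of the helicase subunit Mcm4 lay in cycling cells, 7.87% of those of the clamp Pcna and 11.6% of those of Rrm1, the large ribonucleotide reductase subunit. The share was 11.9% for Mcm6 and 12.7% for Tyms, thymidylate synthase. Among mitotic genes Kif23 (30.4%) and Cenpa (21.3%) had the lowest shares, and the next was Bub1b, a checkpoint kinase, at 60.05%. Cycling cells had a median of 26458, 31165.5 and 11217 UMIs in the 3 libraries, well above the median of all cells, and a deep cell passes a rule of 3 detected genes more easily.

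**Figure D2:**
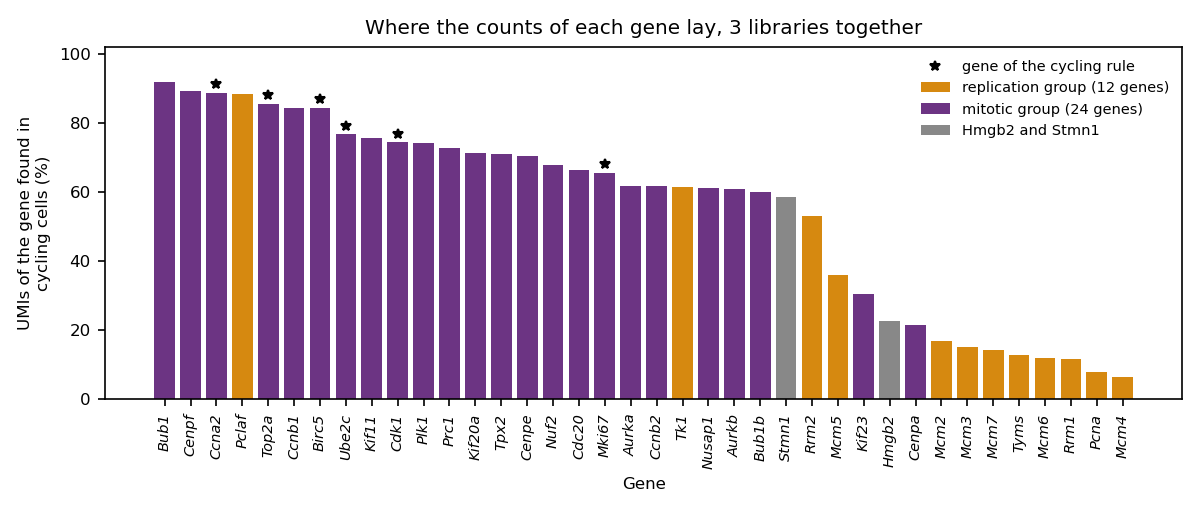
Percentage of each gene's UMIs that lay in the 221 cycling cells of the 3 libraries together (vertical axis), genes ordered by that share (horizontal axis), coloured by group, with stars over the 6 genes of the cycling rule. The order runs from Bub1 at 92.0% to Mcm4 at 6.39%, with Pclaf among the mitotic genes on the left and Kif23 (30.4%) and Cenpa (21.3%) among the replication genes on the right.

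The first comparison, AngII against Vehicle, asks how adventitial cells differ under the hormone, and in macrophages the cell cycle genes were higher in AngII. At 4000 UMIs per cell, 8 of 2231 Vehicle macrophages were cycling (0.359%, 0.155 to 0.705%) and 43 of 1918 AngII macrophages (2.24%, 1.63 to 3.01%), a ratio of 6.25 (2.91 to 15.4). The size of this ratio depended on the doublet step. With doublets kept, 29 of 2464 Vehicle and 54 of 1975 AngII macrophages were cycling (1.18 and 2.73%), a ratio of 2.32 (1.45 to 3.78). Without thinning, the shares were 0.512 and 2.90% with doublets removed, and 1.32 and 3.39% with doublets kept.

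The doublet score took out 24 of 37 cycling macrophages in Vehicle (64.9%), 12 of 70 in AngII (17.1%) and 4 of 64 in AngII_VWR (6.25%), against 8.45, 2.76 and 6.92% of the macrophages that were not cycling. In Vehicle the removed cycling macrophages carried fibroblast markers at 286 CPM (UMIs scaled to a total of 1000000) and the 13 kept ones at 239 CPM. Smooth muscle genes stood at 89.8 and 70.6 CPM, and C1q genes at 9746 and 12450 CPM. T cell markers stood at 0 and 3.36 CPM, and neutrophil markers at 0 in both. The removed cells had a median of 29984 UMIs and the kept ones of 18976. In AngII the removed ones carried fibroblast markers at 1073 CPM and the kept ones at 383 CPM, with medians of 30119.5 and 28965.5 UMIs. Whether the removed cells were single cells was not tested.

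**Figure D3:**
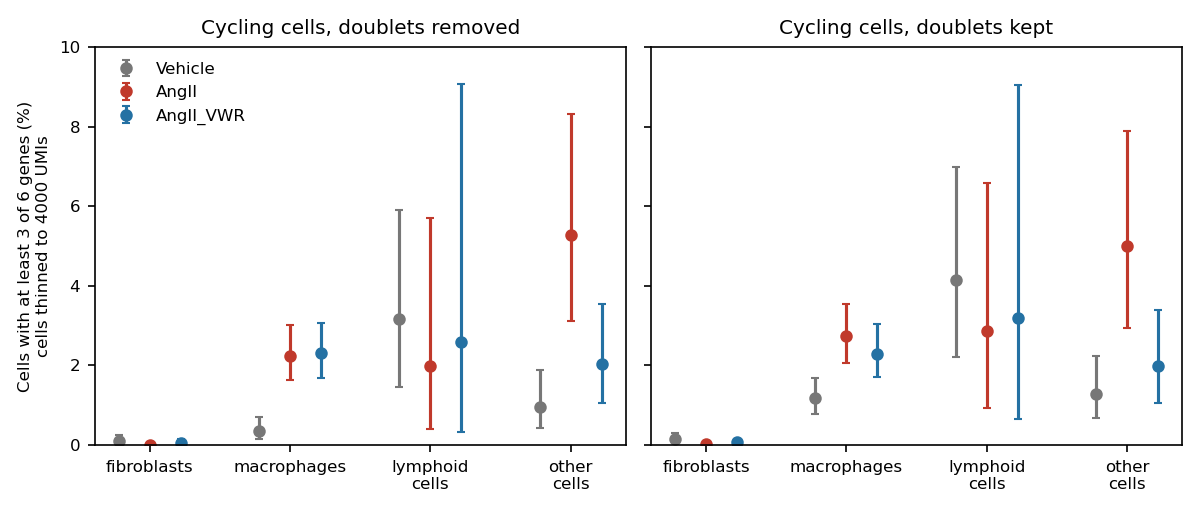
Share of cycling cells (vertical axis, %) in 4 cell classes and 3 libraries, each cell thinned to 4000 UMIs, with doublets removed (left) or kept (right); bars are exact 95% intervals for counting error. Macrophages of AngII and AngII_VWR lie above Vehicle on both sides, while Vehicle macrophages stand at 0.359% on the left and 1.18% on the right.

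Summed over all macrophages of a library, the 38 genes stood at 579 CPM for Vehicle, 1051 for AngII and 895 for AngII_VWR. The AngII over Vehicle ratio was 1.81 (1.78 to 1.85), and 1.43 with doublets kept. All 38 genes were measured, meaning at least 10 UMIs over both libraries and a mean of at least 1 CPM. On the scale of log2(CPM + 1), 28 of the 38 were at least 1.5-fold higher in AngII, against 7.24% of the 12545 genes measured, and 0 were at least 1.5-fold lower, against 7.17%. Their median log2 ratio was 1.44, and that of all genes −0.02. The 6 genes named above define the cycling rule, but the rule took no part in this comparison of summed levels. With doublets kept, 26 of 38 were at least 1.5-fold higher, against 6.21% of all genes, and 0 lower, against 11.4%, with a median of 0.74.

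With the cycling cells left out, the summed level was 506 CPM in Vehicle and 503 in AngII, a ratio of 0.994, and 2 of the 25 genes still measured were at least 1.5-fold higher, against 6.11% of all genes, and 1 lower, against 7.29%. Leaving out cells that were chosen by 6 of the genes lowers those genes, and others detected with them, by construction. The other 32 genes summed alone had a ratio of 1.58 (1.55 to 1.61) in all macrophages and 0.960 (0.938 to 0.982) without cycling cells. Mki67 was still higher in AngII, at 11.5 CPM in Vehicle and 25.5 in AngII macrophages that were not called cycling. A UMI of Mki67 was detected in 215 of these 2524 Vehicle cells (8.52%) and in 345 of these 1940 AngII cells (17.8%).

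Of the genes tied to chromatin, Mki67, the chromosome surface protein used as a proliferation marker, stood at 15.5 CPM in Vehicle, 69.8 in AngII and 39.5 in AngII_VWR macrophages. Top2a stood at 6.47, 45.9 and 31.2 CPM. AngII was the highest and Vehicle the lowest of the 3 libraries for both. The AngII over Vehicle ratio was 4.52 (4.10 to 4.99) for Mki67 and 7.1 (6.14 to 8.24) for Top2a, which had the highest ratio of the set on the scale of log2(CPM + 1), 2.65. With doublets kept Mki67 stood at 33.9 and 75.2 CPM in Vehicle and AngII, a ratio of 2.22 (2.08 to 2.38), and Top2a at 22.8 and 51.6 CPM, a ratio of 2.26 (2.08 to 2.46). Hmgb2, a DNA-bending protein, was at 180, 249 and 213 CPM, a ratio of 1.38, and 1.28 with doublets kept.

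The 7 cyclins and mitotic kinases were each at least 1.5-fold higher in AngII, and together they were 4.32-fold higher (3.90 to 4.78), or 2.03-fold (1.89 to 2.17) with doublets kept. Cdk1, the kinase that drives entry into mitosis, stood at 3.99 CPM in Vehicle, 16.4 in AngII and 16.2 in AngII_VWR. Ccna2 stood at 0.889, 8.13 and 5.74 CPM, from 29, 254 and 100 UMIs, an AngII over Vehicle ratio of 9.14 (6.21 to 13.9), and 2.11 with doublets kept. The 2 angiotensin II libraries were alike for Cdk1 and both above Vehicle. The other members of the group were Ccnb1 and Ccnb2 (the B cyclins), Aurka and Aurkb (the Aurora kinases) and Plk1 (polo-like kinase). Their ratios ran from 2.58 for Aurkb to 6.65 for Ccnb1. With doublets kept all 7 genes of the group were still at least 1.5-fold higher.

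The partners of the anaphase-promoting complex had a summed ratio of 6.30 (5.31 to 7.50), and of 1.88 (1.70 to 2.07) with doublets kept. Ube2c stood at 3.43 CPM in Vehicle, 23.8 in AngII and 19.4 in AngII_VWR, and Cdc20 at 1.38, 6.47 and 7.80 CPM. Among kinetochore and checkpoint genes, Birc5 (survivin, of the chromosomal passenger complex) stood at 3.56, 22.9 and 17.2 CPM, and Cenpf at 2.94, 19.7 and 10.3 CPM. Both were lowest in Vehicle when doublets were removed, with a log2 ratio of 2.39. With doublets kept the ratio was 2.00 (1.79 to 2.24) for Birc5 and 1.87 (1.65 to 2.11) for Cenpf, and Cenpf was then about level between Vehicle (11.1 CPM) and AngII_VWR (10.0 CPM). Cenpa was the exception in this group at 48.3, 58.3 and 43.6 CPM, a ratio of 1.21 (1.13 to 1.29).

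Of the 7 kinesins, spindle and tubulin genes, 6 were at least 1.5-fold higher in AngII. Tpx2, Nusap1 and Prc1, which organise spindle microtubules, had ratios of 6.38, 6.55 and 6.21, and of 2.28, 2.10 and 1.56 with doublets kept. Stmn1 (stathmin, which destabilises microtubules) stood at 41.0, 115 and 101 CPM. Kif23, a kinesin of cytokinesis, went the other way with 36.6 CPM in Vehicle, 30.5 in AngII and 23.9 in AngII_VWR, a ratio of 0.833 (0.765 to 0.908).

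Kif23 and Cenpa were the mitotic genes most often counted outside cycling cells. In macrophages that were not cycling Kif23 stood at 35.1, 17.1 and 14.6 CPM, and in the cycling ones at 202, 271 and 264 CPM. Vehicle was thus the highest library among the cells not called cycling and the lowest among the cycling ones. Cenpa in macrophages that were not cycling stood at 47.8, 47.3 and 36.7 CPM, nearly level between Vehicle and AngII.

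The replication genes differed less. Together the 12 were 1.22-fold higher in AngII (1.19 to 1.27), against 2.86-fold (2.77 to 2.96) for the 24 mitotic genes, and 5 of 12 against 22 of 24 were at least 1.5-fold higher. With doublets kept the ratios were 1.18 (1.15 to 1.22) and 1.69 (1.64 to 1.73), with 4 of 12 and 21 of 24 genes at least 1.5-fold higher. Pcna stood at 108, 93.5 and 124 CPM. Besides Kif23 it was the only member lower in AngII than in Vehicle (log2 ratio −0.20). Tyms stood at 9.11, 10.0 and 7.57 CPM and Mcm6 at 17.4, 21.0 and 19.2 CPM, with log2 ratios of 0.12 and 0.26. The replication genes that were at least 1.5-fold higher were Pclaf (3.53, 18.4 and 15.6 CPM), Rrm1, Rrm2 (the small reductase subunit), Tk1 (thymidine kinase) and Mcm5. The 6 helicase subunits together had a ratio of 1.37 (1.29 to 1.44).

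**Figure D4:**
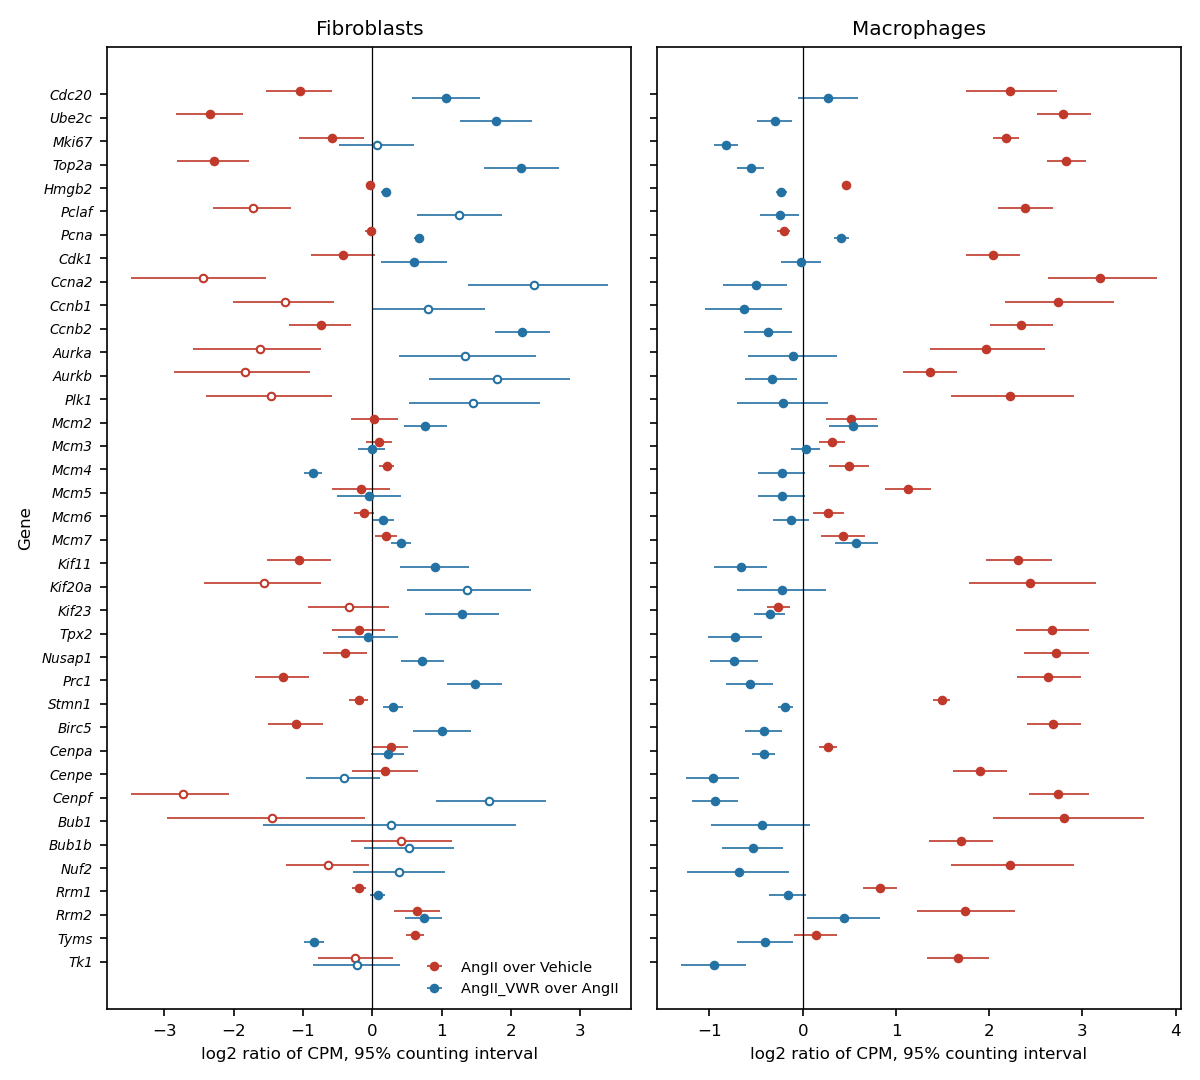
log2 ratio of CPM (horizontal axis) of each of the 38 genes (vertical axis) in fibroblasts (left) and macrophages (right), for AngII over Vehicle (red) and AngII_VWR over AngII (blue), with exact 95% intervals for counting error. Open circles did not reach the minimum count of that pair, and in macrophages the red points of 36 genes lie to the right of 0, with Kif23 and Pcna to the left.

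Other properties of the macrophages moved with the groups. In macrophages that were not cycling, 4 class II antigen presentation genes summed to 8972 CPM in Vehicle, 27988 in AngII and 10679 in AngII_VWR. A list of 6 genes of resident macrophages (Lyve1, Folr2 and others) summed to 4793, 2489 and 3073 CPM, and 4 genes of recruited monocytes to 12.6, 176 and 107 CPM. A list of 10 genes known to respond to tissue dissociation summed to 17320, 9267 and 10368 CPM, and 5 erythroid genes to 1546, 60.3 and 348 CPM. Their part in the difference of the cell cycle genes was not tested.

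Cycling was seen in macrophages with and without these markers. At 4000 UMIs, 1 of 67, 24 of 695 and 14 of 342 macrophages with a UMI of Ccr2, the chemokine receptor of recruited monocytes, were cycling in Vehicle, AngII and AngII_VWR (1.49, 3.45 and 4.09%). Among macrophages with no UMI of Ccr2, 7 of 2164, 19 of 1223 and 31 of 1610 were cycling (0.323, 1.55 and 1.93%). Within the cells with no UMI of Ccr2 the AngII interval (0.938 to 2.42%) lay above that of Vehicle (0.130 to 0.665%). With doublets kept 26 of 2367 of these cells in Vehicle (1.10%, 0.719 to 1.61%) and 24 of 1249 in AngII (1.92%, 1.24 to 2.85%) were cycling, and the intervals overlapped.

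Lyve1, a hyaluronan receptor of resident macrophages, split the cells in a like manner. With a UMI of Lyve1, 8 of 2143, 22 of 1248 and 30 of 1532 macrophages were cycling (0.373, 1.76 and 1.96%). Without one, 0 of 88 (which allows a share of up to 3.41%), 21 of 670 (3.13%) and 15 of 420 (3.57%) were. With doublets kept the shares with a UMI of Lyve1 were 1.19, 2.12 and 1.89%, and those without were 0.885, 3.85 and 3.78%, the first from 1 of 113 cells. The absence of a UMI does not show that a cell lacked the mRNA, and the median depth of these subsets ran from 6123.5 to 17635 UMIs.

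Class II and C1q genes took a smaller share of the UMIs of cycling macrophages than of the others. The median per cell of the class II genes was 190 CPM in cycling and 2154 in other Vehicle macrophages, 3528 and 23514 in AngII, and 409 and 1653 in AngII_VWR. The C1q genes had medians of 11833 and 14640 CPM, 10668 and 14480 CPM, and 10448 and 13194 CPM in the same order. The resident macrophage genes had medians of 3179 and 4467 CPM, 1173 and 2223 CPM, and 1132 and 2639 CPM. All 3 lists thus had lower median CPM in the cycling cells of each library. The cycling cells were deeper, and in UMIs per cell the C1q genes had higher medians in them (280 and 188 UMIs in Vehicle, 324 and 216 in AngII, 107.5 and 63.0 in AngII_VWR), while the class II genes had lower ones (6.0 and 20.0, 105 and 286, 3.5 and 6.0 UMIs). The resident macrophage genes had a higher median in the cycling cells of Vehicle (66 and 53 UMIs). They were close in AngII (29.5 and 31) and AngII_VWR (11 and 10). Among macrophages with at least 10000 UMIs, the class II medians were 274 and 1802 CPM, 3528 and 24058 CPM, and 416 and 700 CPM.

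The mix of phases depended on the doublet step. Replication genes gave 40.6% of the replication and mitotic UMIs of cycling macrophages in Vehicle, 20.7% in AngII and 24.2% in AngII_VWR. Cells with more replication than mitotic UMIs were 8 of 13, 9 of 58 and 12 of 60. After thinning they were 4 of 8 (50%, 15.7 to 84.3%), 2 of 43 (4.65%, 0.568 to 15.8%) and 6 of 45 (13.3%, 5.05 to 26.8%). The 24 Vehicle cells removed as doublets had a replication share of 19.4%, below that of the 13 kept ones. With doublets kept the replication shares were 24.2, 22.8 and 24.4%, and after thinning 5 of 29, 3 of 54 and 6 of 48 cells had more replication than mitotic UMIs. All 6 genes of the cycling rule are mitotic, so cells in early replication are under-counted in each library.

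The second comparison, AngII_VWR against AngII, asks what differed when mice given the hormone also ran. In macrophages the share of cycling cells did not differ beyond counting error at 4000 UMIs, and the level of the mitotic genes was lower in AngII_VWR. At 4000 UMIs 45 of 1952 AngII_VWR macrophages were cycling (2.31%, 1.69 to 3.07%), a ratio over AngII of 1.03 (0.662 to 1.60). This ratio turned its direction with depth. It was 0.692 (0.425 to 1.13) when cells were thinned to 2000 UMIs, 1.84 (1.14 to 2.94) at 8000 UMIs, and 0.642 (0.440 to 0.937) without thinning. With doublets kept it was 0.840 at 4000 UMIs, and AngII_VWR macrophages had a median of 4878 UMIs against 15173.5 in AngII. The step at 4000 UMIs kept 96.0% of AngII but only 60.6% of AngII_VWR macrophages, with doublets removed. In AngII_VWR the cycling macrophages had a median of 10165.5 UMIs and the others 4797. The share at 4000 UMIs is thus one among the deeper cells, and the part of this selection in the ratio was not tested.

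The summed level of the 38 genes was 0.852 times that of AngII (0.836 to 0.868), and 0.776 times with doublets kept. Relative to AngII, 0 of 38 genes were at least 1.5-fold higher in AngII_VWR, against 17% of the 12918 genes measured, and 7 were at least 1.5-fold lower, against 4.84%. The median log2 ratio of the 38 genes was −0.32, while that of all genes measured was 0.19. Relative to this shift the median of the set was −0.51, with 33 genes below the median of all genes and 5 above it, and 15 were at least 1.5-fold below it, against 8.37% of all genes. With doublets kept, 0 were at least 1.5-fold higher, against 18.1%, and 13 lower, against 4.85%. With doublets removed the mitotic genes had a ratio of 0.700 and the replication genes one of 1.10. With doublets kept these ratios were 0.633 (0.614 to 0.653) and 1.01 (0.978 to 1.05).

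The genes with the lowest ratios were kinetochore and proliferation genes and Tk1. Cenpe, the kinesin-like motor of the kinetochore, stood at 14.7 CPM in AngII and 7.52 in AngII_VWR, a log2 ratio of −0.88. Cenpf, Tk1 and Mki67 had log2 ratios of −0.88, −0.83 and −0.81, with Tk1 at 9.89 and 5.11 CPM. With doublets kept the log2 ratios were −0.97 for Cenpe, −0.98 for Cenpf, −0.99 for Tk1 and −0.96 for Mki67. With doublets removed all of them were above their Vehicle levels in AngII_VWR. With doublets kept only Mki67 was (33.9 and 38.1 CPM), while Cenpe stood at 8.13 CPM in Vehicle and 7.64 in AngII_VWR, Cenpf at 11.1 and 10.0 CPM, and Tk1 at 6.47 and 5.18 CPM.

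The highest ratios belonged to replication genes, without reaching 1.5-fold. Mcm7 stood at 8.0 CPM in Vehicle, 10.8 in AngII and 16.1 in AngII_VWR, and Mcm2 at 5.98, 8.58 and 12.5 CPM. Their ratios of AngII_VWR over AngII were 1.49 (1.27 to 1.75) and 1.46 (1.21 to 1.75). Pcna and Rrm2 had log2 ratios of 0.41 and 0.36. With cycling cells left out, which lowers the genes of the rule by construction, the summed ratio of the 38 genes was 1.07. For the 32 genes outside the rule it was 0.887 in all macrophages and 1.09 (1.06 to 1.12) without the cycling ones.

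Fibroblasts, the largest class, hardly cycled in any library. Among 6545, 6081 and 10913 fibroblasts, 7, 2 and 5 cells were cycling in Vehicle, AngII and AngII_VWR (0.107, 0.0329 and 0.0458%). At 4000 UMIs the counts were 5 of 4725, 0 of 5033 (which allows a share of up to 0.0596%) and 3 of 6170. With doublets kept they were 9 of 5552, 1 of 5538 and 5 of 7551. The 7, 2 and 5 cycling cells carried fibroblast markers at 14149, 13650 and 23688 CPM and C1q genes at 18.6, 74.8 and 163 CPM. In the whole class the fibroblast markers took 2.45, 4.15 and 2.80% of UMIs. The cycling cells thus lay below their class in each library.

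Any of the 6 genes of the rule was detected in 2.63, 4.42 and 3.05% of fibroblasts, against 14.6, 28.7 and 14.3% of macrophages. In smooth muscle cells of Vehicle, of which 0 of 515 were cycling (up to 0.583%), the share was 3.5% at a median of 20248 UMIs, and in neutrophils of AngII_VWR, which do not divide, it was 3.91% at 1791.5 UMIs. The intervals of these values were 2.08 to 5.47% in smooth muscle and 1.28 to 8.88% in neutrophils. The fibroblast shares lay within both, at medians of 9494, 12993 and 4590 UMIs. Depth differed between the classes, so these values do not show whether fibroblasts lay above a background.

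The summed level of the 38 genes in fibroblasts was 209, 199 and 238 CPM. Of the 25 genes measured in AngII against Vehicle, 0 were at least 1.5-fold higher, against 6.99% of 12952 genes, and 4 were at least 1.5-fold lower, against 5.2%. Ube2c stood at 2.82 CPM in Vehicle and 0.559 in AngII, and Top2a at 2.37 and 0.486 CPM. Prc1 and Birc5 followed with log2 ratios of −0.78 and −0.66.

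The highest log2 ratios in fibroblasts were 0.58 for Tyms (11.2 and 17.2 CPM), 0.43 for Rrm2, 0.21 for Cenpa and 0.20 for Mcm4. Thus the mitotic genes of fibroblasts were lower in AngII (ratio 0.567, 0.532 to 0.605) and the replication genes were close to level (1.05, 1.02 to 1.08). With doublets kept these ratios were 0.465 (0.440 to 0.492) and 1.06 (1.03 to 1.09). These values rest on few cells. With the 7 and 2 cycling fibroblasts left out, the summed ratio of the 38 genes was 1.11 in place of 0.949, 0 of 15 genes were at least 1.5-fold lower, against 5.16% of all genes, and 4 at least 1.5-fold higher, against 7.03%.

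In AngII_VWR against AngII, 7 of 24 genes measured in fibroblasts were at least 1.5-fold higher, against 8.77% of 13222 genes, and 2 at least 1.5-fold lower, against 4.86%. The median log2 ratio was 0.42, and that of all genes 0.10. Relative to that shift 18 genes were above and 6 below, and 4 were at least 1.5-fold above, against 6.06% of all genes. Ccnb2 stood at 1.46, 0.875 and 3.92 CPM and had the highest log2 ratio (1.39). Top2a (2.14 CPM in AngII_VWR), Prc1 and Ube2c followed with log2 ratios of 1.08, 0.92 and 0.90.

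The 2 lower genes were Mcm4, at 17.3, 20.0 and 11.1 CPM, and Tyms, at 11.2, 17.2 and 9.57 CPM. Mcm4 and Tyms in fibroblasts were thus highest in AngII, where Top2a and Ube2c were lowest. Tpx2 and Mcm5 came next from the bottom with log2 ratios of −0.03 each. Without the cycling cells 3 of 18 genes were at least 1.5-fold higher, against 8.75% of all genes. Pcna stood at 37.5, 36.9 and 58.7 CPM, a ratio of 1.59 (1.51 to 1.67) for AngII_VWR over AngII from 3038 and 3426 UMIs.

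**Figure D5:**
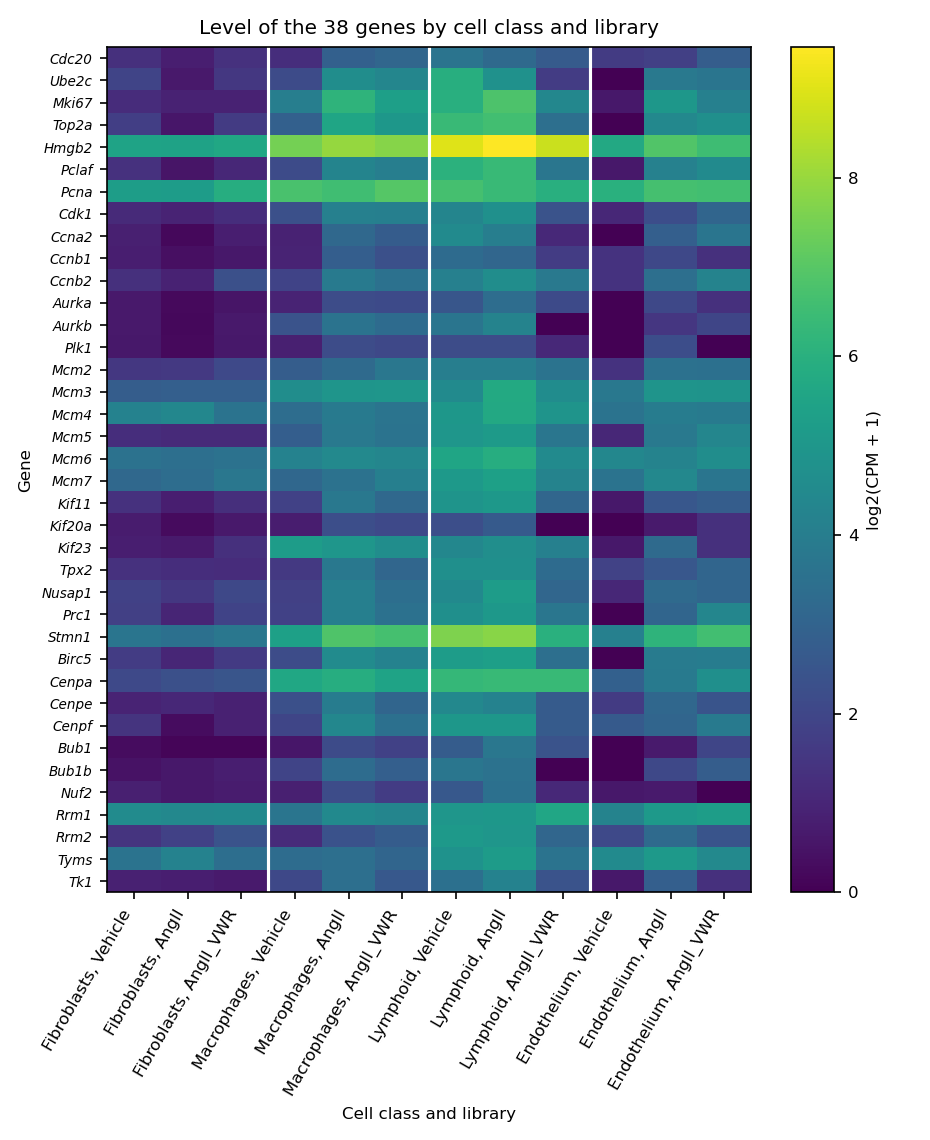
Level of the 38 genes as log2(CPM + 1) (colour) in 4 cell classes and 3 libraries (horizontal axis), genes ordered by role (vertical axis). Lymphoid cells of Vehicle and AngII hold the brightest columns. Mitotic rows are dark in fibroblasts and in Vehicle endothelium, where several genes such as Top2a and Ube2c stand at 0. Macrophages brighten from Vehicle to AngII, Kif23 and Pcna apart.

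Lymphoid cells held the 38 genes at a higher summed level than macrophages or fibroblasts of the same library. In 328, 168 and 244 lymphoid cells the 38 genes summed to 1770, 2166 and 963 CPM. In AngII_VWR Hmgb2 alone gave 416 of the 963 CPM, against 213 CPM in macrophages. With doublets kept, the mitotic genes of AngII_VWR summed to 278 CPM in lymphoid cells and 293 in macrophages. The replication genes summed to 249 and 275 CPM. In that library the higher sum than in macrophages was thus not shared by the mitotic or the replication genes. Cycling cells numbered 10, 7 and 2 (3.05, 4.17 and 0.820%), and after thinning 9 of 285, 3 of 151 and 2 of 77 (3.16, 1.99 and 2.60%), with intervals that overlap. With doublets kept cycling cells numbered 15, 10 and 3, and the 38 genes summed to 2246, 2451 and 989 CPM. In AngII over Vehicle 8 of 38 genes were at least 1.5-fold higher, against 12.9% of all genes, and 1, Ube2c, was lower, against 24.6%. With doublets kept only 3 of the 38 were higher and 2 lower, and the summed ratio was 1.09 (1.05 to 1.13). In AngII_VWR over AngII 30 of 36 measured genes were at least 1.5-fold lower, against 16.4%, and 1, Rrm1, was higher, against 19.6%. For many mitotic genes few cells carried the level. In AngII the 188 UMIs of Mki67 came from 12 of 168 cells, the 66 of Birc5 from 6 and the 26 of Ccna2 from 4. Those of Hmgb2 came from 130 cells. The counts of genes therefore do not show a difference across the whole class.

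Mki67 in lymphoid cells stood at 61.1, 112 and 19.9 CPM, from 190, 188 and 18 UMIs, and Top2a at 83.7, 96.6 and 9.93 CPM. AngII_VWR was the lowest library for both. Cells with at least 2 T cell markers were 204, 110 and 120 with 7, 4 and 2 cycling, and none of the 59, 3 and 23 cells with B cell markers were cycling. Cells with at least 2 natural killer or innate lymphoid markers were 160, 163 and 196 with 6, 6 and 2 cycling, and these subsets overlap, since a cell can hold markers of more than 1 lineage. The class held markers of other cells: smooth muscle genes summed to 5134 CPM in Vehicle, 10.1 in AngII and 2217 in AngII_VWR, and erythroid genes to 2143, 88.8 and 61.8 CPM. The median depth was 6598.5, 7628 and 3072 UMIs, and the part of these differences in the result was not tested.

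Endothelial cells numbered 91, 171 and 93, of which 0 (up to 3.30%), 2 and 4 were cycling. The 38 genes summed to 259, 674 and 689 CPM, and 24 of 27 measured genes were at least 1.5-fold higher in AngII than in Vehicle, against 17.4% of all genes, and 0 lower, against 18.1%. In AngII_VWR over AngII 6 of 29 were at least 1.5-fold higher, against 18.5%, and 7 lower, against 17.2%. Few cells carried these levels. In AngII the 50 UMIs of Mki67 came from 3 of 171 cells, and the 23 of Birc5 and 21 of Ube2c from 2 cells each. Without the cycling cells 13 genes were measured in AngII over Vehicle, 8 of them at least 1.5-fold higher, against 16.2% of all genes, and 1 lower, against 18.8%, with a summed ratio of 1.54 (1.37 to 1.74). For AngII_VWR over AngII 0 of 12 were then at least 1.5-fold higher, against 19.2%, and 2 lower, against 16.8%. The 2 cycling cells of AngII held endothelial markers at 95.1 CPM, C1q genes at 951 CPM and class II genes at 32043 CPM. The 4 cycling cells of AngII_VWR held endothelial markers at 3581 CPM and C1q genes at 89.8 CPM. The whole class held endothelial markers at 7744, 12051 and 9336 CPM, so the cycling cells of AngII lay far below their class. Smooth muscle genes summed to 4932, 204 and 1600 CPM in the class.

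Cells that fitted no class held 10, 23 and 18 cycling cells, out of 2233, 659 and 1412 (0.448, 3.49 and 1.27%). Most of them carried class II antigen presentation genes at 10000 CPM or more, 9 of 10 in Vehicle, 17 of 23 in AngII and 12 of 18 in AngII_VWR. At least 1 of 6 dendritic cell markers was detected in 7, 14 and 10 of them. At 4000 UMIs the shares were 0.962, 5.28 and 2.04%, and 1.29, 5.00 and 1.99% with doublets kept, so AngII was the highest library on both counts.

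Cell cycle genes outside the set were read from lists of related genes. Of 23 other mitotic genes measured in macrophages, 21 were at least 1.5-fold higher in AngII than in Vehicle, against 7.24% of all genes, and 0 lower, against 7.17%. Of 19 other replication genes 5 were at least 1.5-fold higher. With doublets kept 14 of the 23 and 2 of the 19 were, against 6.21% of all genes. Ckap2l, a spindle protein, stood at 7.42, 21.2 and 7.06 CPM, and Cks2, a small subunit bound to CDK1, at 28.4, 35.3 and 66.3 CPM. Ckap2l in AngII_VWR was thus at its Vehicle level, and Cks2 was the highest there.

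Of 7 inhibitors of cyclin-dependent kinases measured in macrophages, 0 were at least 1.5-fold higher in AngII, against 7.24% of all genes, and 1 lower, against 7.17%, which for so few genes is near the background. That 1 was Cdkn2a, named after its values were seen, at 15.7 CPM in Vehicle, 2.40 in AngII and 2.52 in AngII_VWR. Cdkn1a (401, 427 and 428 CPM) and Cdkn2c (19.6, 24.4 and 27.7 CPM) were slightly higher in AngII. Klf4, a transcription factor that restrains division in several cell types, stood at 1330, 608 and 646 CPM. Btg1, an antiproliferative gene, stood at 220, 359 and 421 CPM.

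In fibroblasts Ccnd1, the cyclin that starts G1 progression, stood at 76.1 CPM in Vehicle, 25.5 in AngII and 36.9 in AngII_VWR, a ratio of 0.334 (0.318 to 0.352) for AngII over Vehicle. Cdkn2c, an inhibitor of CDK4 and CDK6, stood at 13.3, 55.1 and 58.6 CPM, a ratio of 4.15 (3.87 to 4.45). Cdkn1c stood at 157, 144 and 85.4 CPM. Ccnd1 was thus lower and Cdkn2c higher in both libraries with angiotensin II. Other genes of these lists were mixed. Ccnd2 was also lower (153, 111 and 115 CPM), while Cdk6, a partner of the D cyclins, was higher (4.12, 9.38 and 9.09 CPM). Cdkn1a was level between Vehicle and AngII (220, 221 and 288 CPM). The 7 inhibitors together had an AngII over Vehicle ratio of 1.08 (1.06 to 1.09) with doublets kept. Tob1 and Btg1, antiproliferative genes, stood at 40.9, 35.3 and 89.1 CPM and at 53.2, 74.5 and 143 CPM, highest in AngII_VWR. Tob2, Trp53inp1, Ccng1 and Ccng2 of the same list were also highest there. The most abundant genes of the list were not, with Btg2 at 1136, 1804 and 1445 CPM and Klf4 at 1355, 991 and 938 CPM. In the same fibroblasts 6 genes of activated fibroblasts summed to 416, 2865 and 1440 CPM, and 6 of progenitor fibroblasts to 8514, 3731 and 3620 CPM, and their part was not tested.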

How the data were processed

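Droplet-based 3′ libraries of the aortic adventitia were read from deposited raw counts of UMIs per gene and cell barcode. Per the file headers the authors made these counts with Cell Ranger, version 7.0.1 in the Vehicle and AngII files and version 7.1.0 in the AngII_VWR file. The build was mm10 per the submitters' processing notes, and whether intronic reads were counted is not given in the sources used here. The libraries held 15093, 10515 and 19633 barcodes with 165977330, 141570158 and 105679209 UMIs.

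Kept barcodes had 300 or more genes, 500 or more UMIs and a mitochondrial share no higher than 10%. Doublets were scored in each library with Scrublet (scanpy 1.11.5), and the top-scoring 11.1, 7.92 and 15.2% of barcodes were taken out (0.8% for every 1000 cells). Cells past both the fibroblast and the macrophage threshold entered neither class. Among the rest, endothelium needed 3 of 10 markers, lymphoid cells 2 markers of 1 lineage, and neutrophils and smooth muscle 1% of UMIs from their markers. Thinning drew UMIs without replacement. Counts were summed over a class and scaled to CPM, and ratios in counts of genes used log2(CPM + 1). Intervals of shares are Clopper-Pearson, of ratios exact conditional (scipy 1.17.1). With 1 library per group there was no test. The ratio of CPM is given as a fold without the added 1. A count of 0 is read as allowing up to 3 counts.

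Genes were named by rule: the 6 genes of the cycling rule, the 4 highest and 4 lowest log2 ratios among measured genes in fibroblasts and macrophages, and the 5 highest and 5 lowest shares in cycling cells. Further members illustrate each role. In related lists up to 2 highest and 2 lowest ratios with at least 20 CPM were eligible. The members and lists were chosen with earlier results of these data known. Pseudogene or related copies are annotated (GENCODE vM21) for Ccnb1, Ccnb2, Tyms, Pcna and Stmn1, and antisense neighbours for 9 members, among them Ccna2, Ube2c, Pclaf and Mcm7, so their counts are uncertain where reads are shared. The interval calculation was tested on simulated data.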

Additional observations from a re-analysis of the deposited data

How the results depend on the processing

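Alternatives were stricter cell filters (1000 genes and 2000 UMIs), a mitochondrial limit of 20%, doublets kept, doubled class thresholds, other thinning depths, cells weighted equally, cycling cells left out, CPM + 5 and no filter on low counts. Keeping doublets without thinning, splitting the lymphoid class, endothelium without cycling cells, and the values with doublets kept for single genes, roles, phases and macrophage subsets were chosen after seeing the data. Values are log2 ratios unless said otherwise, and where a cause is not shown by the setting's own construction, the cause was not tested.

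For the cycling share of macrophages in AngII over Vehicle (2.64), strict filters gave 1.48, keeping doublets 1.22, and keeping them without thinning 1.36. In AngII_VWR over AngII (0.04) the value was −0.25 with doublets kept, −0.53 at 2000 UMIs, 0.88 at 8000 UMIs, −0.64 without thinning and −0.87 with doublets kept and no thinning. The difference in cycling fibroblasts was 0 percentage points in AngII minus Vehicle with doubled thresholds (−0.106 as reported), and 0.147 in AngII_VWR minus AngII at 8000 UMIs (0.0486 as reported).

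The summed level in macrophages, AngII over Vehicle (0.86), was 0.80 at the 20% limit, 0.52 with strict filters, 0.52 with doublets kept, 0.58 with equal weights and −0.0086 without cycling cells. In AngII_VWR over AngII (−0.23) it was −0.20 with strict filters, −0.37 with doublets kept, −0.16 with equal weights and 0.10 without cycling cells. In fibroblasts, AngII over Vehicle (−0.08), it was −0.18 with strict filters, −0.13 with doublets kept, 0.28 with doubled thresholds, 0.13 with equal weights and 0.15 without cycling cells. In AngII_VWR over AngII (0.26) it was 0.21 with strict filters, 0.33 with equal weights and 0.21 without cycling cells.

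Of counts at 1.5-fold, fibroblast genes higher in AngII (0 as reported) were 1 at the 20% limit, with strict filters and with equal weights, 2 with doubled thresholds and 4 without cycling cells. Those lower (4) were 8 with strict filters, 7 with doublets kept or no filter, 1 with equal weights, and 0 with doubled thresholds, CPM + 5 or no cycling cells. Those higher in AngII_VWR (7) were 3 without cycling cells and 2 with CPM + 5. Macrophage genes higher in AngII (28) were 2 without cycling cells, and 1 was lower (0). In AngII_VWR over AngII, those higher (0) were 1 with strict filters and 5 without cycling cells, and those lower (7) were 13 with doublets kept, 3 with equal weights or CPM + 5, and 0 without cycling cells. The fibroblast median in AngII over Vehicle turned positive with doubled thresholds (0.23), equal weights (0.19) and no cycling cells (0.11), and the macrophage median in AngII_VWR over AngII without cycling cells (0.15).

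No paired analysis was possible because each group is 1 library. Shallow cells limit the detection of cycling cells most in AngII_VWR, and no setting measures the spread between mice.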
